A study of Mus musculus with 14 samples.

Results

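The genes described here encode the machinery of oxidative phosphorylation: every row of the UMI table whose symbol starts with Nduf, Uqcr or Atp5, or with Cox followed by 4 to 8, together with Sdha, Sdhb, Sdhc, Sdhd and Cyc1, and without symbols containing -ps. The rule found 84 of the 9969 genes of the table, and used names alone, no measured value. They fall into 36 genes of complex I, 5 complex I assembly factors (Ndufaf), 4 genes of complex II, 9 of complex III, 13 of complex IV, 15 of complex V, and 2 genes (Atp5s and Atp5sl) that carry an Atp5 name without being subunits. Cycs (cytochrome c) also belongs to the rule and was not analysed here. Of the 84 genes, 81 had enough UMIs to be tested. Cox6b2, Cox7a1 and Ndufa11, with 42, 49 and 55 UMIs over all libraries, had not.

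The libraries came from germinal centre B cells of C57BL/6 mixed chimeric mice, made of 50% WT cells and 50% cells carrying SykY317F, a tyrosine-to-phenylalanine substitution in the antigen receptor kinase Syk. All mice had been immunized with NP-KLH, and their popliteal lymph nodes were taken on day 14, so WT and SykY317F cells shared their hosts. Dark zone (DZ) and light zone (LZ) cells were sorted, giving 4 libraries for each zone of WT and 3 for each zone of SykY317F. No label ties a library to a mouse, so p-values measure the spread between these libraries, which may be technical. Counts per gene do not show the substitution itself.

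In oxidative phosphorylation, complex I (NADH dehydrogenase) and complex II (succinate dehydrogenase, which is also an enzyme of the TCA cycle) pass electrons to coenzyme Q, complex III passes them to cytochrome c, and complex IV gives them to oxygen. The proton gradient built on the way drives complex V, the ATP synthase. All subunits of complex II are nuclear genes, whereas the other complexes also hold subunits encoded by mitochondrial DNA, which were not analysed here (0 of the 13 such genes have a row). Germinal centre B cells divide mainly in the DZ and are selected by antigen and T cells in the LZ, and they are known to rely on mitochondrial respiration.

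Libraries held 149641 to 1767898 UMIs (unique molecular identifiers, 1 per captured mRNA molecule). The 3 SykY317F LZ libraries were the smallest, at 149641 to 379125 UMIs, with 9.37 to 15.8 UMIs per 100 reads against 33.5 to 53.2 in the WT libraries, and 1, 5 and 4 of the 84 genes had no UMI in SykY317F LZ replicates 1, 2 and 4. LZ markers were at a summed 891 to 1160.5 CPM (the UMI count relative to the TMM-scaled library size) in WT LZ against 471 to 649 in WT DZ, and at 1095 to 1480.3 in SykY317F LZ against 489 to 798 in SykY317F DZ, so the zones did not overlap in either genotype for these. The 3 DZ markers summed to 712 to 970.0 CPM in WT DZ and 358 to 504 in WT LZ, but overlapped in SykY317F, at 591 to 736 CPM in DZ and 436 to 655 in LZ. Of these, Cxcr4, the chemokine receptor that holds cells in the DZ, had a log2 fold change of 0.23 ± 0.35 between the SykY317F zones and -0.62 ± 0.30 between the WT zones. All 9 GC B cell markers with a row were detected in each group. Of 6 T cell markers with a row, none was at 0 in any group, and their sum was 20.9 to 50.7 CPM in WT DZ, 55.7 to 145 in WT LZ, 77.7 to 185 in SykY317F DZ and 47.8 to 129.8 in SykY317F LZ. The 9 myeloid markers, also all detected in each group, summed to 91.9 to 397 CPM in WT DZ, 59.5 to 161 in WT LZ, 264 to 556 in SykY317F DZ and 50.7 to 124 in SykY317F LZ. The part of these other cells in the results below was not tested. In such bulk samples, fewer cells of a kind and less RNA per cell cannot be told apart.

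For orientation, upstream sequences are given for the gene with the smallest p in each of 3 zone comparisons described below: Cox6a1 (both genotypes averaged), Ndufs4 (WT) and Sdhd (SykY317F). They are RefSeq sequences of GRCm38.p6, minus strand, written 5′ to 3′ along the gene, and stop where either RefSeq or GENCODE places the gene's start. Cox6a1, the widely expressed form of a small complex IV subunit, is shown at chr5:115348982-115349208, Sdhd, a membrane anchor of complex II, at chr9:50603850-50604099, and Ndufs4, an accessory subunit of complex I, at chr13:114388259-114388344. Capitals mark matches on either strand to motif letters of NRF1, ETS factors, YY1, SP1 and the TATA box, spelled out after the sequences. The capital run of Cox6a1 nearest its beginning holds 2 overlapping NRF1 matches.
Cox6a1: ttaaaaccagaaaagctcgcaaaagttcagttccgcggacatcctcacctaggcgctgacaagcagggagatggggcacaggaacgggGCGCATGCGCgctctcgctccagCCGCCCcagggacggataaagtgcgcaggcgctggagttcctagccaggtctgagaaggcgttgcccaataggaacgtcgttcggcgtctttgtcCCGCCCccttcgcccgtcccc
Sdhd: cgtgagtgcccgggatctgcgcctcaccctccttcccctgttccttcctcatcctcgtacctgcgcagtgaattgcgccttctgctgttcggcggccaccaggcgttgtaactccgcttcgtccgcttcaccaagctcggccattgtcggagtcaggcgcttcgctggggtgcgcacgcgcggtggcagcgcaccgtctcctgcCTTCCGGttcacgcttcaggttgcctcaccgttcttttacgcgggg
Ndufs4: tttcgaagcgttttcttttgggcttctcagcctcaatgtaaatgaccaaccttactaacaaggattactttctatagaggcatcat
Cox6a1 also holds SP1 matches 139 and 44 bases before its RefSeq start, Sdhd an ETS match 46 bases before it, and the Ndufs4 stretch none. Over windows from 250 bases before to 50 bases after the start, 71 of the 84 genes matched the RefSeq table. The NRF1 letters GCGCATGC were found for 14.1% of them, against 6.48% of the 7685 genes of the UMI table with a window and 3.05% of all 27025 genes in the RefSeq table. The YY1 letters AAGATGG were found for 16.9%, 9.17% and 7.28% in the same order. For the ETS letters CCGGAAG the shares were 23.9%, 22.8% and 9.93%. The SP1 letters GGGCGG had 45.1%, 69.7% and 38.2%, so they were less common here than in the UMI table as a whole. The TATA box letters TATAAA had 7.04%, 8.21% and 15.7%. These are counts of letters, not of bound sites.

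As a share of all UMIs, the 84 genes took up more of the DZ libraries than of the LZ libraries. The share was 2.62%, 3.04%, 2.75% and 2.84% in WT DZ replicates 2 to 5, and 2.11%, 2.22%, 2.42% and 2.27% in WT LZ replicates 1, 2, 3 and 5. In SykY317F it was 2.35%, 2.44% and 2.61% in DZ replicates 1, 2 and 4, and 2.20%, 2.26% and 1.88% in the LZ replicates with the same numbers. Group values were 2.81% ± 0.172 (SD, n = 4) in WT DZ and 2.25% ± 0.130 (n = 4) in WT LZ. For SykY317F they were 2.47% ± 0.132 (n = 3) in DZ and 2.11% ± 0.206 (n = 3) in LZ. Within each genotype every LZ library lay below every DZ library, and the 95% Wilson interval of a single library reached at most 0.0688 percentage points to either side, which covers counting error only. Counted in reads instead of UMIs, the WT zones still did not overlap (2.33% to 2.57% in LZ, 2.81% to 3.18% in DZ), whereas the SykY317F zones did (2.06% to 2.68% in LZ, 2.56% to 2.98% in DZ). The mean of SykY317F DZ lay between those of the WT zones, with its highest library, at 2.61%, just under the lowest WT DZ library.

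Among the 5 complexes, complex II had the lowest ratio of LZ to DZ mean share in each genotype. Its 4 genes took 0.104% to 0.122% of UMIs in WT DZ, 0.0736% to 0.0977% in WT LZ, 0.0919% to 0.106% in SykY317F DZ and 0.0515% to 0.0649% in SykY317F LZ. No LZ library reached the DZ libraries of its genotype. Complex V took 0.722% to 0.891% in WT DZ and 0.576% to 0.772% in WT LZ, which overlap, and 0.662% to 0.725% in SykY317F DZ and 0.575% to 0.627% in SykY317F LZ, which do not. For complex IV it was WT that separated (0.597% to 0.753% in DZ, 0.491% to 0.535% in LZ) and SykY317F that overlapped (0.498% to 0.639% and 0.463% to 0.551%).

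**Figure D1:**
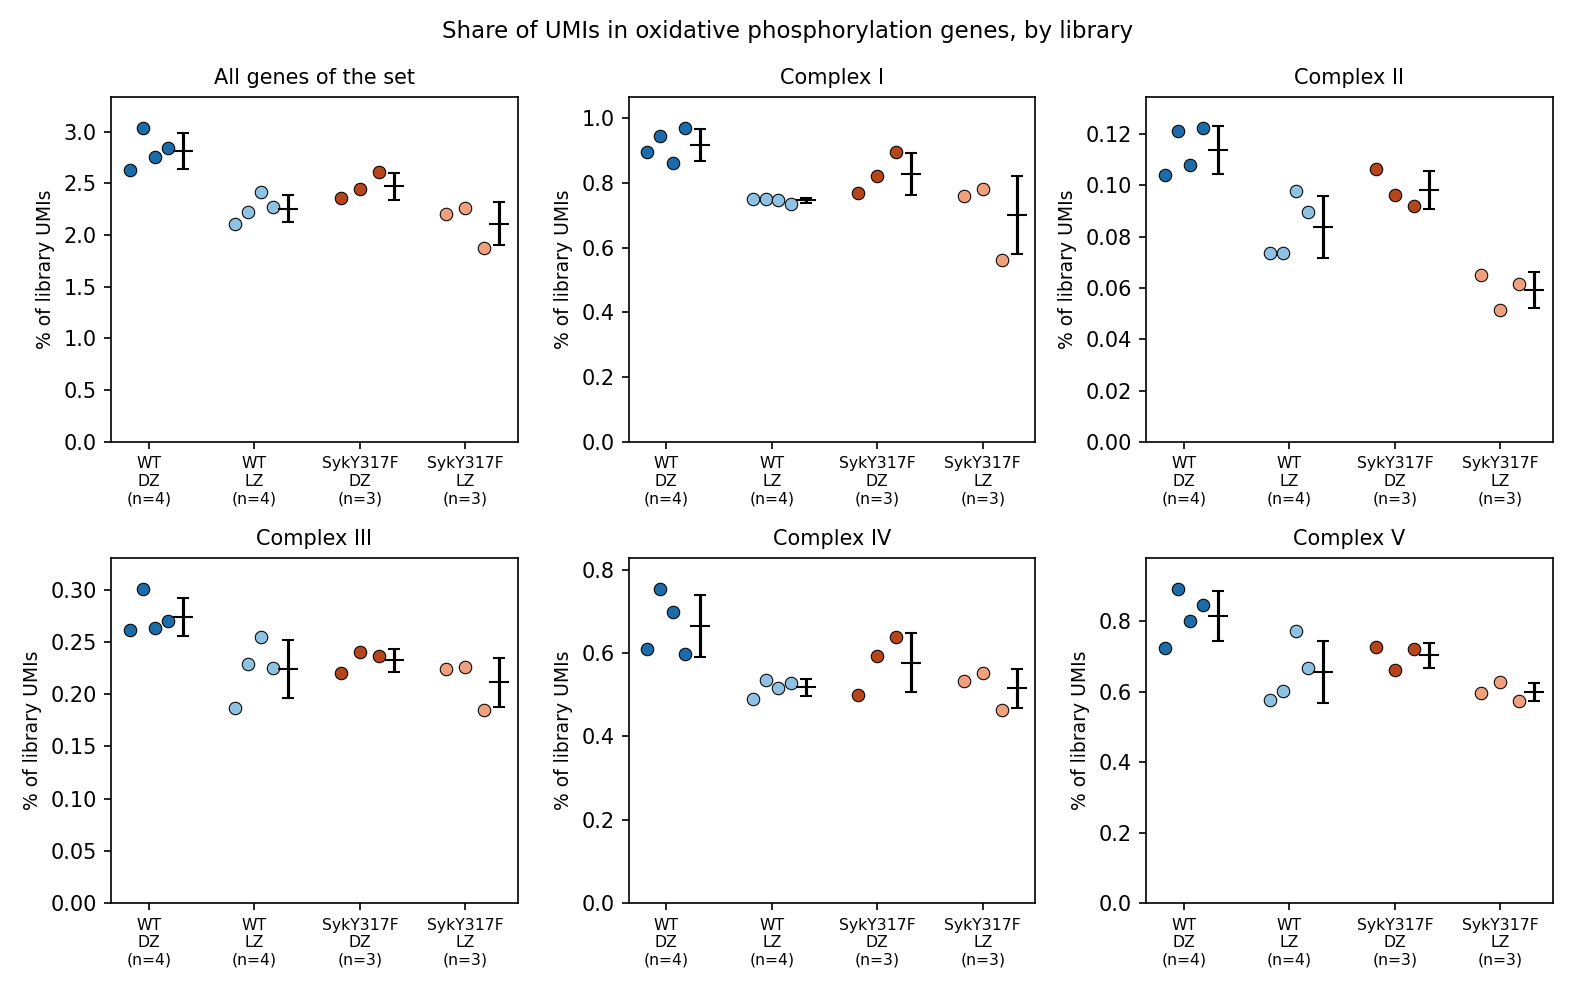
Percentage of each library's UMIs in the oxidative phosphorylation genes, for the whole set and for each complex. Points are libraries, and the bar beside them is the group mean with its SD; over the whole set the LZ points of each genotype lie below its DZ points (2.11% to 2.42% against 2.62% to 3.04% in WT).

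The WT comparison asks how the 2 zones differ in cells with normal Syk. Of the 81 tested genes, 71 had a log2 fold change (LZ over DZ) below 0, against 51.7% of all 7999 tested genes, and their median was -0.29, against -0.02 over all genes. None passed an adjusted p of 0.05 in edgeR's quasi-likelihood test, which called 0.188% of all genes. DESeq2's Wald test called 3 (Ndufa1, Ndufs4 and Sdhb) and limma voom with sample quality weights 4 (Atp5k, Cox6b1, Ndufa1 and Ndufs4), all lower in LZ. Over all genes with an adjusted p, DESeq2 called 1.44% and limma voom 3.65%, beside 3.8% and 4.94% of the genes described here. At an unadjusted p under 0.05 stood 12 genes, 14.8% of those tested against 8.48% of all genes, and all 12 were lower in LZ. For 7 genes every LZ library lay below every DZ library (2.88% of all genes), and for none did every LZ library lie above (2.89% of all genes). Leaving out single libraries moved the count below 0 between 66 and 74, and without WT LZ replicate 2 the 12 genes became 7.

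In WT the complexes lay close together. Medians were -0.29 for complex I (32 of 35 below 0), -0.27 for its assembly factors (3 of 5), -0.32 for complex II (4 of 4), -0.30 for complex III (8 of 9), -0.30 for complex IV (10 of 11) and -0.35 for complex V (13 of 15).

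Among single genes, Ndufs4 had the smallest p in WT. Its protein sits in the NADH-oxidizing arm of complex I, and its loss is a known cause of complex I deficiency. The gene lies at chr13:114287795-114388258 (GRCm38). Ndufs4 stood at 68.6, 95.5, 87.2 and 86.7 CPM in WT DZ replicates 2 to 5, and at 25.2, 25.7, 38.4 and 57.7 CPM in WT LZ replicates 1, 2, 3 and 5. No LZ library reached the lowest DZ library, and the log2 fold change was -1.18 ± 0.28 (SE; edgeR, adjusted p = 0.0858). DESeq2 gave an adjusted p of 0.0161 and limma voom 0.0158 for it. The range over all 26 alternatives was 0.0158 to 0.449.

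Ndufb4, an accessory subunit of the membrane arm of complex I, was at 85.4 to 129 CPM in WT DZ and 48.3 to 68.7 CPM in WT LZ, again without overlap (log2 fold change -0.87 ± 0.25, edgeR adjusted p = 0.186). Sdhb, the iron-sulfur subunit of complex II and the most abundant of its 4 transcripts, was at 683, 754, 603 and 899 CPM in WT DZ and at 449.8, 478, 549 and 479 CPM in WT LZ. These zones were also apart, with 735 ± 126 CPM (SD, n = 4) against 489 ± 42.2 (n = 4). Of the few WT genes above 0, Ndufaf2, a complex I assembly factor, had the smallest p, with 14.2 to 23.1 CPM in DZ and 15.6 to 38.4 in LZ, which overlap (log2 fold change 0.54 ± 0.37).

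**Figure D2:**
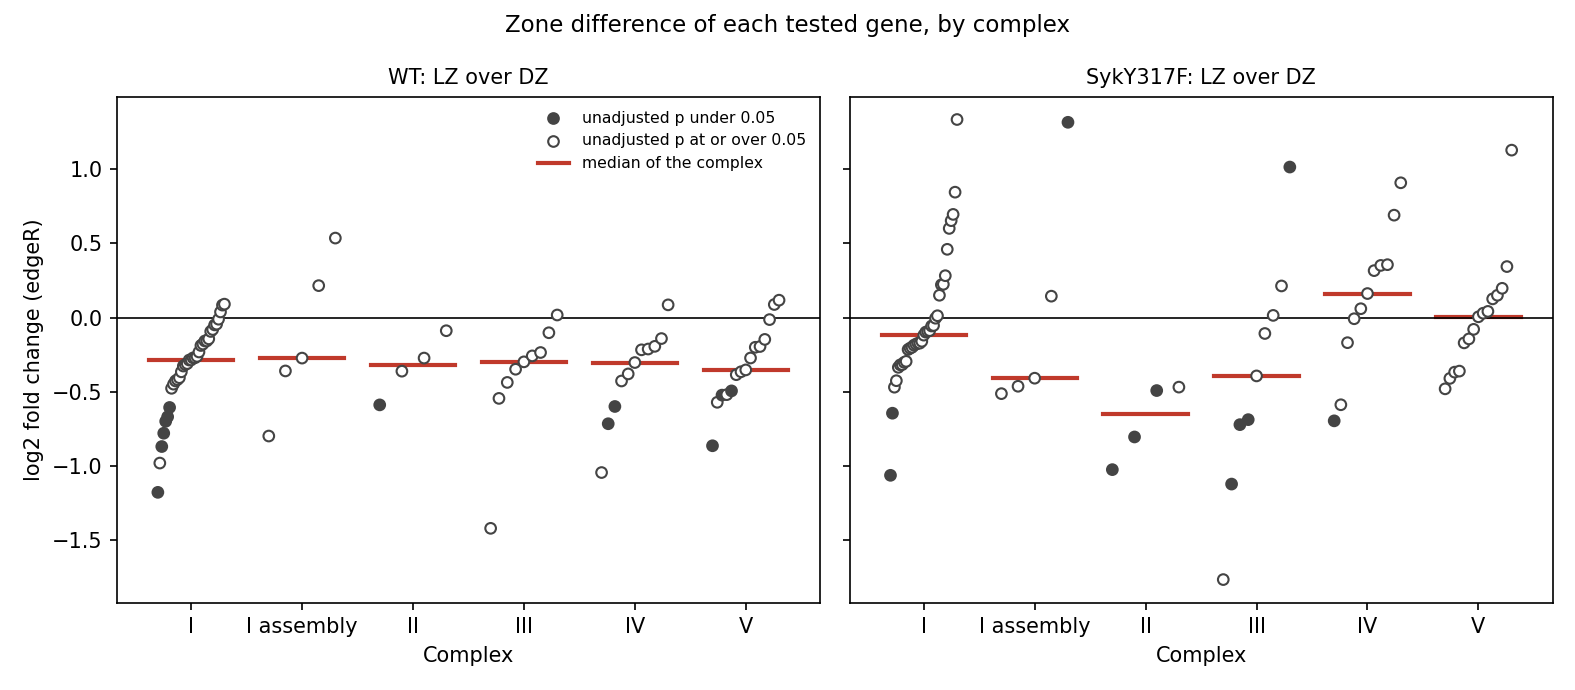
edgeR log2 fold change of LZ over DZ for each tested gene, grouped by complex, in WT and in SykY317F; the 2 Atp5-named genes that are not subunits are left out. Filled points have an unadjusted p under 0.05 and red bars are medians, which lie between -0.27 and -0.35 in WT and between -0.65 (complex II) and 0.16 (complex IV) in SykY317F.

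The same comparison in SykY317F cells gave medians by complex from -0.65 to 0.16. Of the 81 genes, 50 lay below 0 (53.3% of all genes did), with a median of -0.12 against -0.04 over all genes. None passed the edgeR threshold (0.0375% of all genes did), nor that of DESeq2 (0.594% of all genes) or limma voom (0.025%). An unadjusted p under 0.05 was reached by 11 genes, 13.6% against 10.3% of all genes, of which 9 were lower and 2 higher in LZ. All LZ libraries lay below all DZ libraries for 11 genes (8.5% of all genes), and above them for 5, or 6.17%, beside 6.56% of all genes. The whole-set median depended on several libraries. Without SykY317F LZ replicate 4, the smallest, it was 0.062 with 33 genes below 0, and 5 genes were at an unadjusted p under 0.05. Without SykY317F DZ replicate 4 it was -0.033 with 41 below 0. Without SykY317F LZ replicate 2 it was -0.25 with 59 below 0, and 7 genes were at an unadjusted p under 0.05. Of 7 tested myeloid markers, 7 lay below 0 in the same comparison, as did 3 of 3 T cell markers, and their part was not tested. Scaling by library size alone, without TMM, gave a median of -0.27 with 58 genes below 0, and moved the median of all genes to -0.19.

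Of the 9 lower genes at an unadjusted p under 0.05, 6 belonged to complexes II and III. The 4 complex II genes had a median of -0.65 and the 9 complex III genes one of -0.39 (6 below 0). For complex I the median was -0.12 (24 of 35 below 0), for its assembly factors -0.41 (3 of 5), for complex V 0.00 (7 of 15) and for complex IV 0.16 (4 of 11).

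Complex II is small enough to show whole. Sdhd was at 145, 102 and 169 CPM in SykY317F DZ replicates 1, 2 and 4, and at 65.7, 79.0 and 56.5 CPM in SykY317F LZ (log2 fold change -1.03 ± 0.29, edgeR adjusted p = 0.219). The other membrane anchor, Sdhc, was at 126, 108 and 108 CPM in DZ and at 95.5, 33.9 and 56.5 CPM in LZ. Both anchors were thus lower in every LZ library than in any DZ library. Sdhb read 565, 562 and 578 CPM in DZ and 459.7, 395 and 351 CPM in LZ. Sdha, the flavoprotein that oxidizes succinate, read 163, 143 and 116 CPM in DZ and 113, 79.0 and 113 CPM in LZ. All 4 genes therefore separated the zones in SykY317F, while in WT only Sdhb did. LZ libraries all lay below DZ libraries for 8.5% of all genes in SykY317F (3 a zone) and 2.88% in WT (4 a zone). For Sdha the gap in SykY317F was narrow, 116 against 113 CPM. These values rest on 42 UMIs in DZ replicate 4, and on 38 and 18 in LZ replicates 1 and 4. Sdha in WT was at 95.8 to 162 CPM in DZ and 112 to 149.7 CPM in LZ. The difference between genotypes in the zone effect was not past the threshold for any of the 4, with log2 values of 0.10 ± 0.30 for Sdhb, -0.38 ± 0.36 for Sdha, -0.44 ± 0.40 for Sdhc and -0.75 ± 0.36 for Sdhd (edgeR adjusted p = 0.999 for each). In counts, Sdhc and Sdhd rested on few molecules in SykY317F LZ: the lowest library of each held 6 and 9 UMIs.

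In complex III, the core subunit Uqcrc2 was at 163, 169.5 and 152 CPM in SykY317F DZ and 77.6, 39.5 and 107 CPM in SykY317F LZ. Uqcrfs1, the Rieske iron-sulfur protein, was at 217 to 268 CPM in DZ and 128 to 176 CPM in LZ (log2 fold change -0.72 ± 0.27, edgeR adjusted p = 0.357), and Cyc1, which holds the cytochrome c1 heme, at 189 to 285 and 119 to 176 CPM. Transcripts of these 3 catalytic or core proteins were lower in each LZ library than in any DZ library. Uqcrh, the acidic hinge protein of the same complex, had the opposite sign. It was at 357, 380.1 and 368 CPM in DZ and 922, 892 and 408 CPM in LZ (log2 fold change 1.02 ± 0.36, edgeR adjusted p = 0.343). Ndufaf2 was also above 0, at 8.29 to 20.2 CPM in DZ and 28.2 to 69.0 in LZ (log2 fold change 1.32 ± 0.48, edgeR adjusted p = 0.346), on 3 to 30 UMIs a library.

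**Figure D3:**
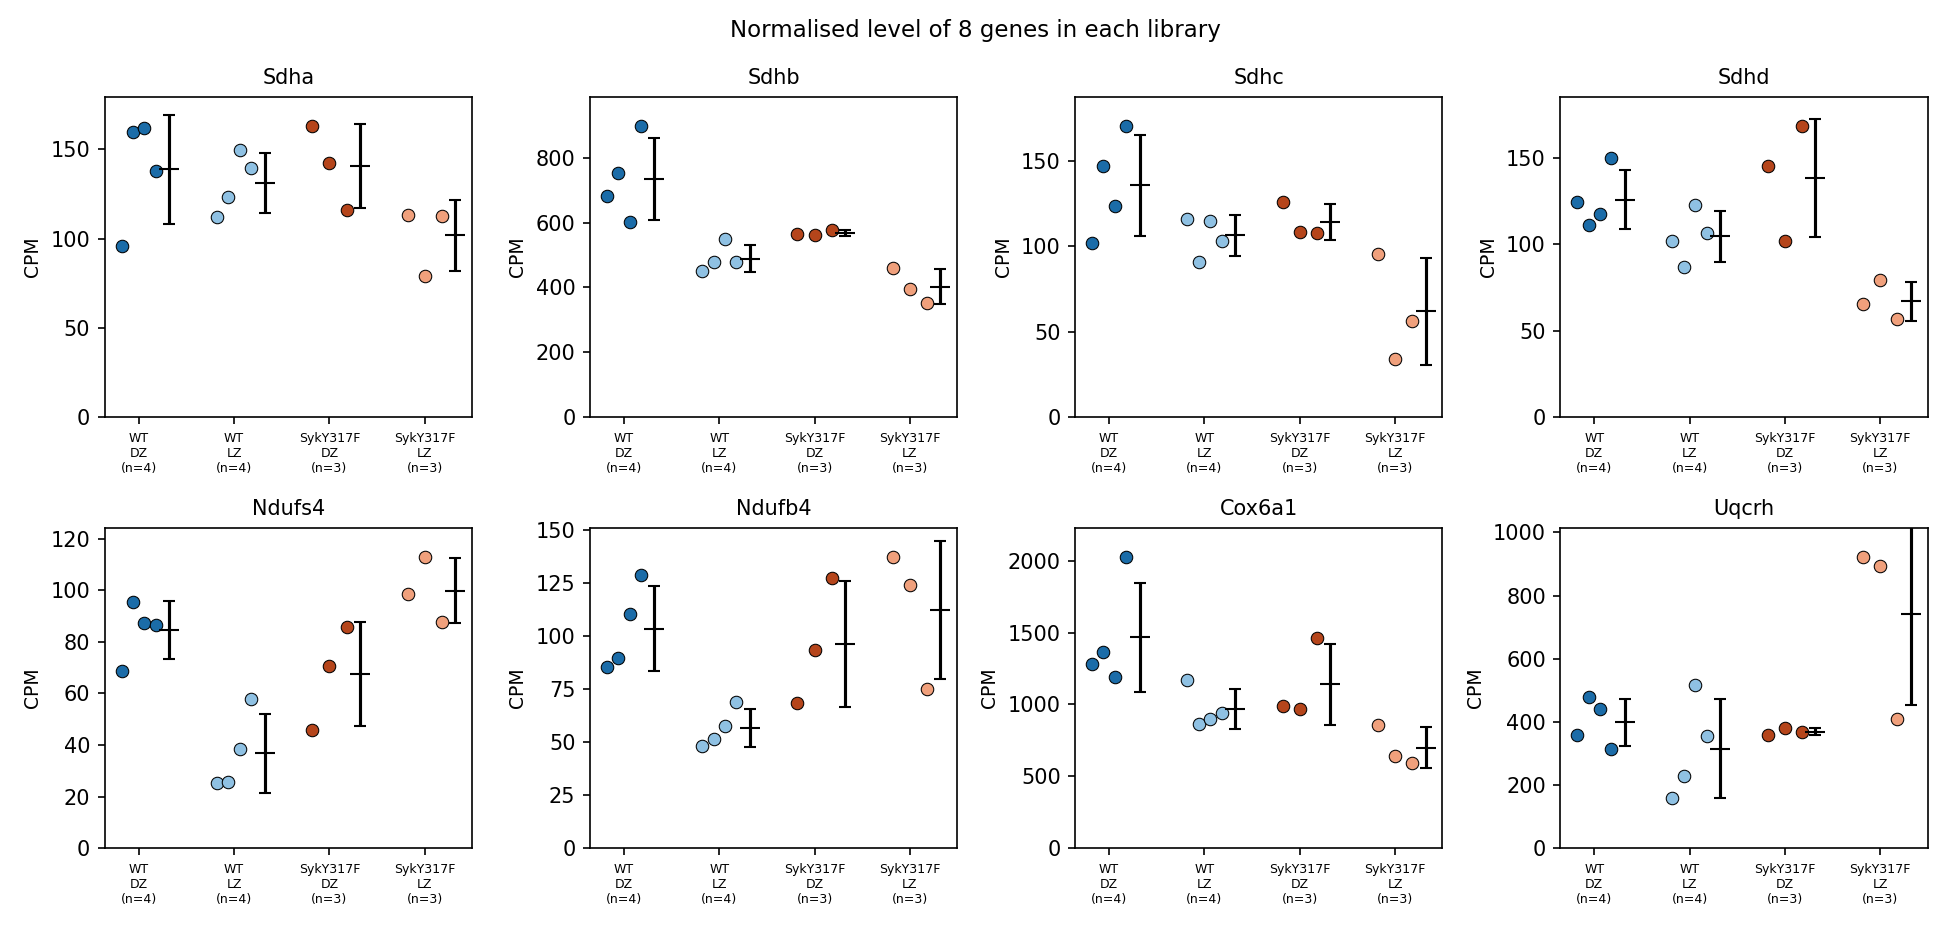
Normalised level (CPM, axis from 0) of the 4 complex II genes and of Ndufs4, Ndufb4, Cox6a1 and Uqcrh in each library. Points are libraries, bars the group mean with its SD; the complex II genes have their lowest group mean in SykY317F LZ, while Ndufs4 is lowest in WT LZ (25.2 to 57.7 CPM) and Uqcrh highest in 2 SykY317F LZ libraries.

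With both genotypes averaged, 65 of the 81 genes lay below 0 (53.7% of all genes), with a median of -0.20 against -0.03 over all genes. None passed in edgeR, which called 1.43% of all genes. DESeq2 called Cox6a1, Sdhb and Sdhd, and limma voom Cox6a1 and Sdhb. These are 3.7% and 2.47% of the genes described here, close to the 2.94% and 2.5% of all genes that the same tools called. At an unadjusted p under 0.05 stood 14 genes, 17.3% against 14.3% of all genes, 13 of them lower in LZ. Complex II had the lowest median, at -0.56, followed by complex III at -0.35, complex V at -0.25 and complex I at -0.22. The assembly factors stood at -0.15 and complex IV at -0.07.

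Cox6a1 had the smallest p. It was at 1283, 1363, 1192 and 2026 CPM in WT DZ, and at 1168, 863, 896 and 941 CPM in WT LZ. In SykY317F it was at 989.5, 969 and 1465 CPM in DZ and 859.6, 644 and 596 CPM in LZ. Each genotype's LZ libraries all lay below its DZ libraries, and the mean log2 fold change was -0.65 ± 0.18 (edgeR adjusted p = 0.0718, between 0.00692 and 0.404 over 25 alternatives). Sdhb (-0.54 ± 0.15, edgeR adjusted p = 0.0741) was the one other gene whose LZ libraries all lay below its DZ libraries in both genotypes. Over all genes, 2.88% did so in WT and 8.5% in SykY317F, and the share in both was not counted. Sdhd followed with -0.65 ± 0.18 (edgeR adjusted p = 0.0797) and Sdhc with -0.58 ± 0.20 (edgeR adjusted p = 0.166).

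The other genes with the smallest p of each complex had smaller differences or larger errors. In complex I these were Ndufa1 (-0.52 ± 0.17), Ndufv3 (-0.46 ± 0.18) and Ndufs6 (-0.44 ± 0.18). In complex III they were Uqcrc2 (-0.83 ± 0.27), Uqcrfs1 (-0.48 ± 0.17) and Cyc1 (-0.40 ± 0.21). Complex IV added Cox5a (-0.51 ± 0.18) and Cox7a2l (-0.19 ± 0.16), the latter known for joining complexes III and IV into supercomplexes. In complex V, the catalytic head subunits Atp5b (-0.42 ± 0.17) and Atp5a1 (-0.44 ± 0.20) and the stalk subunit Atp5f1 (-0.45 ± 0.17) were alike in size. Ndufaf2 was the gene above 0 with an unadjusted p under 0.05 (0.93 ± 0.30), while the assembly factors Ndufaf1 (-0.60 ± 0.47) and Ndufaf3 (-0.37 ± 0.22) lay below 0. Of the genes named here, Atp5a1, Atp5f1, Ndufs6, Ndufaf2 and Ndufaf3 overlap another gene of the table on the genome, and whether the counting used strand is not given in the sources used here. Adjusted p-values of these genes in edgeR ran from 0.133 to 0.647.

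Whether the zone effect differed between genotypes was tested as the interaction, SykY317F minus WT. No gene of the whole table passed in edgeR (0%), and none of the 81 did in any of the 25 alternatives. The median was 0.15, against -0.05 over all genes, with 28 of 81 below 0 (53.7% of all genes). Scaled by library size alone, the median was 0.00076 with 40 below 0, while that of all genes moved to -0.19. Without SykY317F LZ replicate 2 it was 0.053 with 38 below 0, and without SykY317F LZ replicate 4 it was 0.33 with 23. An unadjusted p under 0.05 was reached by 8 genes, 9.88% against 4.8% of all genes, of which 7 were above 0. By sign alone, 45 genes lay below 0 in both genotypes, 26 below 0 in WT and above 0 in SykY317F, 5 the reverse and 5 above 0 in both. Ndufs4 had the smallest p. Its levels in SykY317F were 45.7, 70.6 and 85.7 CPM in DZ and 98.5, 113 and 87.8 CPM in LZ (interaction 1.78 ± 0.45, edgeR adjusted p = 0.850). Its zones did not overlap in either genotype, but in opposite directions. In SykY317F the gap was narrow, 87.8 against 85.7 CPM, on 14 and 31 UMIs in LZ and DZ replicate 4. Every LZ library lay above every DZ library for 6.56% of all genes in SykY317F, and below for 2.88% in WT. Cox6b1, which lies where a pair of complex IV units meet, was at 612 to 869 CPM in WT DZ, 309 to 501 in WT LZ, 367 to 619 in SykY317F DZ and 464 to 756 in SykY317F LZ (interaction 1.03 ± 0.36, edgeR adjusted p = 0.991). Ndufab1, the mitochondrial acyl carrier protein, had the opposite sign (-1.15 ± 0.55). It read 110.4, 67.7 and 6.27 CPM in SykY317F LZ replicates 1, 2 and 4, so its value there rests on 1 UMI in replicate 4.

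Genotypes were also compared within each zone. In the DZ, 64 of the 81 genes were below 0 (SykY317F over WT; 55% of all genes), with a median of -0.23 against -0.04. In the same comparison 7 of 7 tested myeloid markers and 3 of 3 T cell markers lay above 0, and 27 of 27 G2 and mitosis genes below 0 (median -0.43); their part was not tested. No gene of the table passed in edgeR (0%), DESeq2 (0.025% of all genes) and limma voom (0%) called none of the 81, and 1, Cox6b1, reached an unadjusted p under 0.05, against 3.81% of all genes (-0.53 ± 0.25). Without WT DZ replicate 5 the median was -0.10, with 55 genes below 0, and without SykY317F DZ replicate 1 it was -0.11, with 58. Sdhb was the other lower gene of smallest p, at 603 to 899 CPM in WT DZ against 562 to 578 CPM in SykY317F DZ (-0.37 ± 0.21). All 9 complex III genes lay below 0 in this comparison, with a median of -0.25. In the other direction the smallest p belonged to the methyltransferase Ndufaf7 (0.49 ± 0.41) and to Atp5sl (0.25 ± 0.23), each close to its error.

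In the LZ the genes split. Below 0 were 41 of 81 (54% of all genes), with a median of -0.01 against -0.06 over all genes. All 27 tested G2 and mitosis genes lay below 0 here too (median -0.98). So did 6 of 7 tested myeloid markers and 3 of 3 T cell markers, and the part of these lists was not tested. No gene of the table passed in edgeR (0%), while 14 of the 81, 17.3% against 9.81% of all genes, reached an unadjusted p under 0.05: 6 lower and 8 higher in SykY317F. Ndufs4 had the smallest p, with 87.8 to 113 CPM in SykY317F LZ and 25.2 to 57.7 CPM in WT LZ (1.41 ± 0.33, edgeR adjusted p = 0.123), and Uqcrh followed, with 408 to 922 and 159 to 516 CPM (1.25 ± 0.33, edgeR adjusted p = 0.183). DESeq2 called both, at adjusted p-values of 0.0211 and 0.0458, and 1.01% of the 4277 genes to which it gave an adjusted p; limma voom called none (0%). On the other side were Cyc1, at 119 to 176 against 230.4 to 326 CPM (-0.82 ± 0.31), and Uqcrfs1, at 128 to 176 against 215 to 267 CPM (-0.67 ± 0.26). Medians were -0.49 for complex II (4 of 4 below 0), -0.47 for complex III (7 of 9), 0.01 for complex I (16 of 35), 0.06 for complex V (6 of 15) and 0.26 for complex IV (4 of 11). Without SykY317F LZ replicate 4 the whole-set median was 0.16 with 30 genes below 0, and without SykY317F LZ replicate 2 the 14 genes became 9. The comparisons share libraries: each of the 4 groups enters a zone and a genotype comparison.

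In the authors' deposited table of comparisons, Sdhb and Ndufs4 had adjusted p-values of 0.0166 and 0.0223 for WT LZ over WT DZ, both lower. In the same authors' deposited table Ndufs4 had 0.0446 for SykY317F LZ over WT LZ, higher, and no other gene of the set passed 0.05 in any of the 4 comparisons deposited there. Of all 9969 genes, 0.782% passed there for WT LZ over WT DZ and 0.251% for SykY317F LZ over WT LZ. For SykY317F LZ over SykY317F DZ and SykY317F DZ over WT DZ, 0.221% and 0.181% did.

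A second pattern ran between libraries of the same group. The within-group SD of log2 CPM had a median of 0.41 over the 81 genes, but reached 1.88 for Uqcrb, 1.55 for Cox7b and 1.28 for Cox7a2 (genes singled out after their values were seen, like Ndufa10 below). Cox7b, a small complex IV subunit, was at 194, 340.1, 299.9 and 7.54 CPM in WT DZ replicates 2 to 5, a library of 1767898 UMIs holding 12 for this gene. In WT LZ replicates 1, 2, 3 and 5 it was at 42.8, 53.4, 82.5 and 219 CPM. Uqcrb, a small complex III subunit, was also lowest in WT DZ replicate 5 and highest in replicate 3 among the WT DZ libraries: 37.5, 121, 120.1 and 5.02 CPM in WT DZ, and 1.10, 11.9, 5.76 and 75.6 CPM in WT LZ. In SykY317F DZ it was at 2.90, 113 and 19.4 CPM. SykY317F LZ replicates 1, 2 and 4 held only 2, 6 and 1 UMIs of it. Its log2 fold change (LZ over DZ) was -1.42 in WT and -1.77 in SykY317F. These were the lowest of the 81 genes in each genotype, and neither passed the edgeR threshold. The lowest of the CPM values given for Uqcrb, in WT LZ replicate 1, rests on 1 UMI. Cox7a2 was at 8.79 CPM in WT DZ replicate 5 and 139 to 201 in the other 3. At the other end, Ndufa10 had an SD of 0.15, with 163 to 260.3 CPM over all 14 libraries.

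Of these, Cox7b and Uqcrb have the transcripts with the lowest GC content of the set, at 42.0% and 42.2%. Cox7a2 has 51.9%, and Cyc1 the highest, 62.3%. Over 80 of the genes, Spearman's rho between transcript GC and a library's deviation from the gene mean was 0.35 in WT LZ replicate 1 and 0.29 in WT DZ replicate 5, and -0.43, -0.41 and -0.38 in WT DZ replicate 4, WT LZ replicate 5 and SykY317F LZ replicate 4. Over all 7563 genes with a value, those 5 libraries had 0.55, 0.40, -0.61, -0.44 and -0.07. Genes within a library share that library, so these are descriptions. SykY317F DZ replicate 1 differed by transcript length instead, with a rho of 0.61 over the 80 genes. The WT log2 fold change of all genes also went with GC (rho 0.37), that of the 80 genes less so (0.19). With each library's GC trend removed, an alternative chosen after seeing the data, the WT median was -0.33 with 72 of 81 below 0, and Ndufs4 had a value of -1.06 (edgeR adjusted p = 0.0805). Without WT DZ replicate 5 and WT LZ replicate 1, chosen in the same way, the WT median was -0.21 with 67 of 80 below 0.

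**Figure D4:**
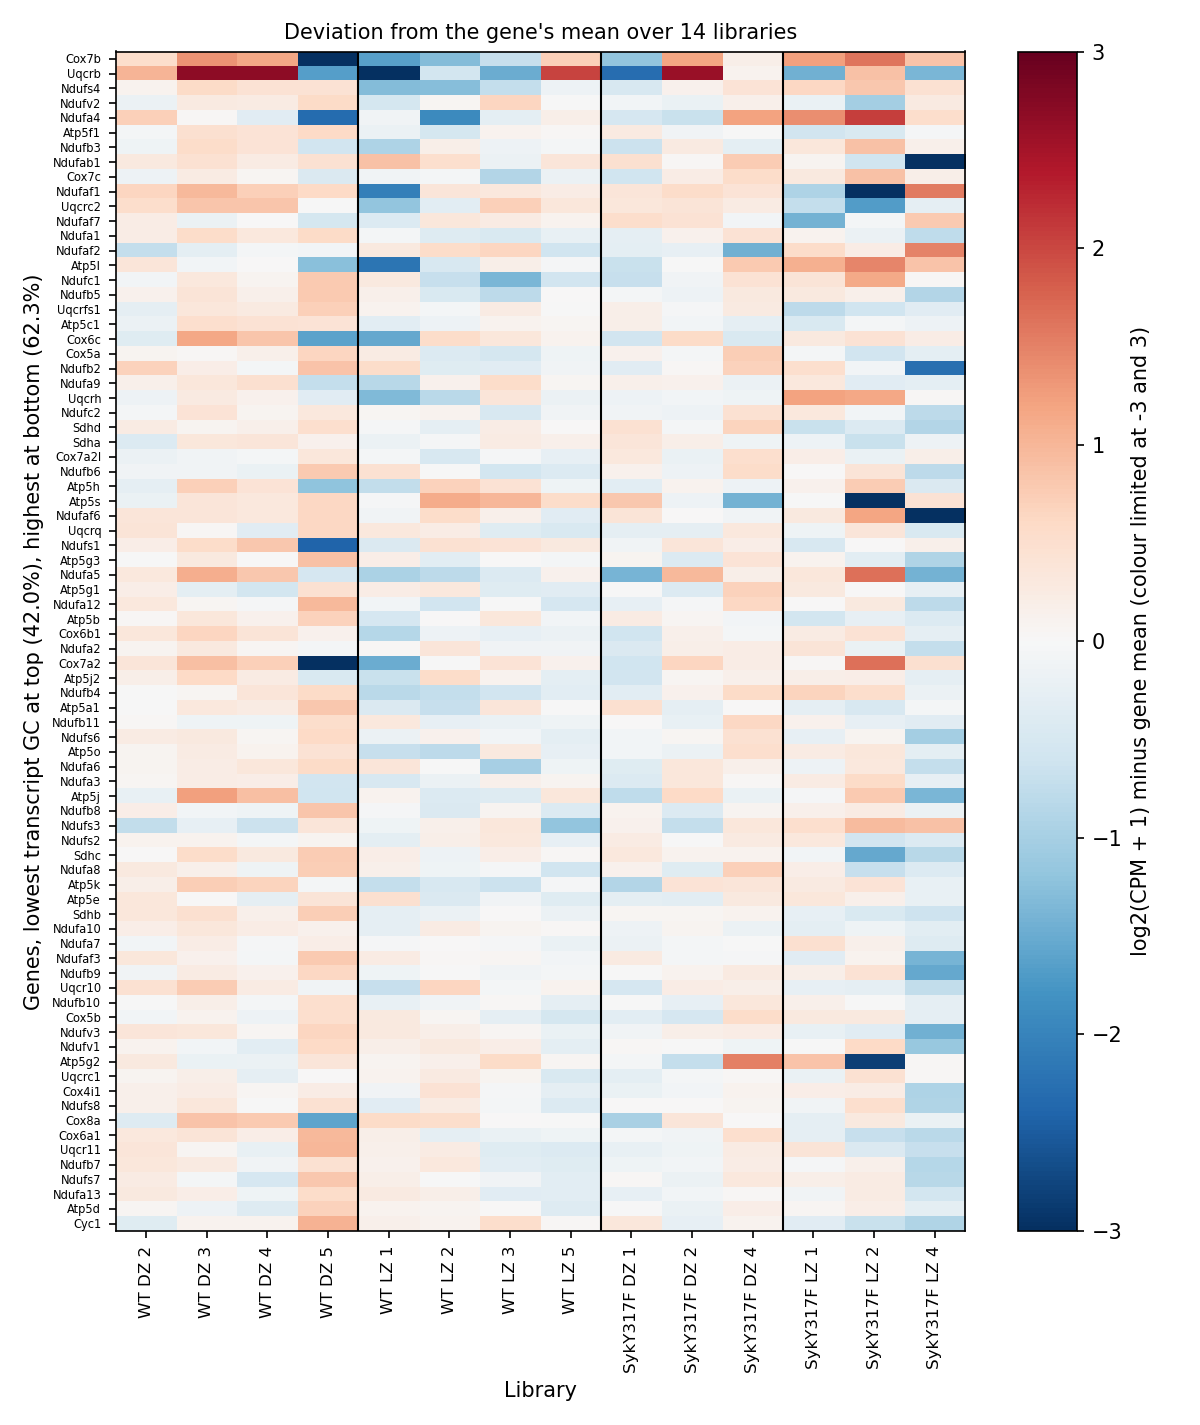
Deviation of each gene's log2(CPM + 1) from its mean over the 14 libraries (colour, limited at -3 and 3), for the 80 tested genes with a transcript GC value, ordered from Cox7b (42.0%) at the top to Cyc1 (62.3%) at the bottom. Black lines part the 4 groups; the top rows differ between libraries of 1 group, for example Cox7b and Uqcrb between WT DZ replicates 3 and 5.

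Several subunits exist as alternative genes, whose choice differs between tissues. The protocol, a form of MARS-seq, counts transcript ends and not reads along their length. Differences by GC or in the treatment of multiply mapped reads were not removed, so levels of different genes are only described side by side. Of the genes for the c subunit of the ATP synthase ring, which yield the same mature protein, Atp5g3 was at 489 to 1665 CPM, Atp5g1 at 132 to 315 and Atp5g2 at 0 to 19.4 over the 14 libraries. In every library the order was Atp5g3, Atp5g1, Atp5g2. Cox4i1, the common form of subunit 4 of complex IV, had the most UMIs of the whole set, 18931, and stood at 753 to 1917 CPM. Cox6b1 was at 309 to 869 CPM, while Cox6b2, known from testis, was at 0 to 8.29 CPM. Cox7a1, known from muscle, was at 0 to 8.78 CPM, against 8.79 to 339 CPM for Cox7a2. Cox8a, the widely expressed form of its subunit, was at 103 to 565 CPM. Ndufa4, first described in complex I and later assigned to complex IV, was at 8.79 to 203 CPM. By its name it is counted with complex I, not complex IV, in all values given here by complex. The most abundant complex I gene was Ndufa13, at 445 to 954 CPM.

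Beside the subunits, lists of genes that build or feed the chain were read in the same fits, averaged over genotypes. Of 32 tested assembly factors (such as Cox10, which makes the heme of complex IV, and Tmem186, which acts in complex I assembly), none passed in edgeR, 23 were below 0 and the median was -0.13. The log2 fold changes of Cox10 and Tmem186 were -0.54 ± 0.27 and 0.63 ± 0.34. Of 18 genes of the TCA cycle and pyruvate dehydrogenase, none passed and 15 were below 0, with a median of -0.24 and the smallest p for the isocitrate dehydrogenases Idh2 (-0.81 ± 0.27) and Idh3g (-0.48 ± 0.19). Of 14 genes for ATP and phosphate exchange and inner membrane upkeep, none passed and 11 were below 0 (median -0.37), among them Atpif1, the inhibitor of ATP synthase (-0.53 ± 0.18), and the channel Vdac2 (-0.43 ± 0.18). Coenzyme Q synthesis (10 genes, 0 passed, 5 below 0) had a median of 0.06, with Adck4 at 0.47 ± 0.30 and Coq9 at 0.42 ± 0.29. Mitochondrial DNA upkeep and expression (12 genes, 0 passed, 6 below 0) had one of -0.04, with the helicase Peo1 at -0.93 ± 0.42 and Lrpprc, which stabilizes mitochondrial mRNA, at 0.52 ± 0.25. Among the same lists, genes at an unadjusted p under 0.05 numbered 0 of 32, 4 of 18, 5 of 14, 0 of 10 and 1 of 12 in that order. Over all genes 14.3% reached that p and 53.7% lay below 0, and the first list and the last 2 were under the 14.3%.

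Of 13 nuclear regulators, 2 passed in edgeR with genotypes averaged, where 1.43% of all genes did. Bcl6, the germinal centre repressor, fell by 0.77 ± 0.18 on the log2 scale in LZ (edgeR adjusted p = 0.0359). Tfeb, a regulator of lysosome genes, rose by 0.80 ± 0.19 (edgeR adjusted p = 0.0318). Both are near the threshold, being under it in 14 and 13 of 25 alternatives: leaving out single libraries took the adjusted p of Bcl6 up to 0.121 and that of Tfeb up to 0.129. Genes of cell division differed between zones as well. All 27 tested genes of the G2 and mitosis list were below 0 with genotypes averaged, and 4 passed in edgeR: Cdc20 (-1.40 ± 0.24, adjusted p = 0.00614), Ccnb2 (-1.90 ± 0.34, adjusted p = 0.00848), Ube2c (-1.31 ± 0.25, adjusted p = 0.0119) and Cenpa (-0.87 ± 0.18, adjusted p = 0.0178), which serve mitotic entry, exit and the centromere. None of these calls held without the 2 libraries with the fewest UMIs, SykY317F LZ replicates 2 and 4 (adjusted p 0.0753 to 0.144). Summed over 28 genes, that list stood at 2248 to 2903 CPM in WT DZ, 1205 to 2699 in WT LZ, 1564 to 2510.0 in SykY317F DZ and 756 to 1167 in SykY317F LZ. Of its 27 tested genes, 19 lay below 0 and 8 above in WT, while all 27 lay below 0 in SykY317F. The list's median was -0.25 in WT and -0.89 in SykY317F, while the respiratory genes had -0.29 and -0.12. The part of dividing cells in the respiratory differences was not tested.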

How the data were processed

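Messenger RNA of sorted germinal centre B cells was measured by 3′ tag sequencing, a form of MARS-seq with oligo(dT) capture, per the labels' protocols. The authors deposited UMI counts per gene symbol and a second table of read counts, as the file headers show. For 4 comparisons the authors also deposited log2 fold changes and adjusted p-values, per the file headers. Tools listed by the submitters' processing notes, without roles, are STAR 2.4.2a, cutadapt, HTSeq, DESeq and DESeq2, with the mouse build mm10. The sources used here do not say how multiply mapped reads were treated. A further 34 per-sample columns were not used.

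Of 9969 genes with UMI counts, 7999 passed edgeR's filterByExpr and held 99.3% of UMIs. Counts were scaled by TMM and fitted with edgeR 4.0.16 (R 4.3.3; robust quasi-likelihood, 4 group means, 6 contrasts). The mean zone contrast averages the zone effects of both genotypes. P-values are two-sided and adjusted by Benjamini-Hochberg over all 7999 genes; the threshold is 0.05. An interval of 1 SE or a 95% Wilson interval stands beside values, and a floor of 3 UMIs corresponds to 1.73 to 18.8 CPM. DESeq2 1.42.0, limma 3.58.1 voom, other scalings, filters and library sets were alternatives. The code was tested on simulated data. Of the read table, 11912 of 11914 rows were used, as 2 repeated a symbol. Transcript GC and length came from GENCODE M21 (GRCm38), which gave positions for 83 of the 84 genes; of these, 16 overlap another gene of the UMI table. Libraries with the same replicate number did not all deviate together (correlations -0.555 to 0.215 within a genotype and -0.173 to 0.306 between genotypes), so numbers were not treated as pairs.

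Genes and lists were chosen with earlier results of these data known. Named are the genes with the smallest p (3 per complex with genotypes averaged, 2 per direction in each other contrast, 2 per list), those past the threshold, complex II, Cyc1, the isoform families and the gene with the most UMIs per complex; others are said to be chosen after their values were seen.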

Additional observations from a re-analysis of the deposited data

Results flagged for a closer look

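Among 90 groups of 4 libraries examined, 3 single values stood far from the other 3 of their group. Chance gives about 1 in 20 groups, so the 3 found are fewer than chance would give. Cox5a, a complex IV subunit, was at 635 CPM in WT DZ replicate 5 and at 419 to 453 CPM in the other WT DZ libraries. Cox6b1 was at 309 CPM in WT LZ replicate 1 and at 470.3 to 501 CPM in the other WT LZ libraries. Ndufaf1, a complex I assembly factor, was at 2.19 CPM in WT LZ replicate 1, under that library's floor of 3 UMIs (3.29 CPM), and at 14.4 to 15.8 CPM in the others. Groups of 3 libraries were not examined. In the read table alone, Cox6a2, the muscle form of the subunit, had 9 reads, all in SykY317F DZ libraries, and Ndufaf4 had 23 reads, all in WT libraries.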

How the results depend on the processing

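In edgeR with all 14 libraries, none of the 81 genes was called in any of the 6 comparisons. In WT, DESeq2 called 3 genes and limma voom 4, where they called 1.44% and 3.65% of all genes. Leaving out single libraries gave 0 to 1 (Ndufs4, without WT LZ replicate 5, where 17 genes of the whole table were called). With genotypes averaged, scaling by library size only and DESeq2 each called 3 (Cox6a1, Sdhb and Sdhd), and limma voom and removal of the GC trend each 2 (Cox6a1 and Sdhb); these settings called 1.28%, 2.94%, 2.5% and 2.4% of all genes, and 2 of 81 is 2.47%. Between genotypes in LZ, DESeq2 and removal of the GC trend each called 2 (Ndufs4 and Uqcrh) and read counts 1 (Ndufs4), where they called 1.01%, 0.313% and 0.569% of all genes. The cause was not tested. Of 154 medians under alternatives, 151 moved by less than the spread between libraries, a log2 SD of 0.165. That spread is larger in size than the medians of SykY317F (-0.12), genotypes in LZ (-0.01) and the zone difference between genotypes (0.15). For these, the count therefore cannot show that a median is stable. In SykY317F leaving out single libraries gave -0.25 to 0.062, and for the zone difference between genotypes 0.053 to 0.33. For genotypes in LZ the median was 0.17 without the 2 libraries with the fewest UMIs. Without those 2 libraries, 4 genes in SykY317F (41 of 81 below 0) and 4 between genotypes in LZ had an unadjusted p under 0.05. For these and the other counts at an unadjusted p with libraries left out, the share of all genes was not counted. The WT median ran from -0.34 to -0.21. In reads the shares were 2.44% in WT LZ, 2.71% in SykY317F DZ and 2.42% in SykY317F LZ; without Cox4i1 they were 2.11% in WT LZ and 2.33% in SykY317F DZ. Under the replicate block, 0 genes were called in any comparison, and the medians were -0.32 in WT, -0.16 in SykY317F and -0.10 and -0.01 between genotypes in DZ and LZ; the block changed no call of these genes. Of the fold changes picked by the naming rules, 7 were smaller than their standard error, and 6 of them took the other sign under some alternative. Those 7 are not printed. Other printed values can be smaller than their error, as for Cxcr4 between the SykY317F zones and the Sdhb interaction. Depth limits SykY317F LZ most: a median of 25.5 UMIs per gene in replicate 4. Removing the GC trend and leaving out WT DZ replicate 5 with WT LZ replicate 1 were chosen after seeing the data.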
